A study of Mus musculus with 21 samples.

Results

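Coenzyme Q biosynthesis was followed through 9 genes, Pdss1, Pdss2, Coq2, Coq3, Coq4, Coq5, Coq6, Coq7 and Coq9, which were chosen by name as the nuclear genes for the enzymes and core complex of the pathway and not by their values. They are 9 of the 27179 genes counted in each library. All 9 passed the filter on low counts and were among the 16377 genes tested.

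Coenzyme Q is a quinone ring carrying a long isoprenoid tail, and it moves electrons from dehydrogenases of the inner mitochondrial membrane to complex III. The tail is built from isoprenoid units of the mevalonate pathway, joined to 4-hydroxybenzoate, and the ring is then hydroxylated and methylated by a membrane-bound complex in the mitochondrial matrix. Podocytes, the filtering epithelial cells of the glomerulus, are known to be sensitive to loss of this pathway, since inherited defects of COQ2, COQ6, PDSS2 and COQ8B cause proteinuria and glomerular disease.

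The libraries were made from nephrin-antibody and magnetic-bead fractions of digested kidney cortex, 1 library for each mouse. All mice were wildtype C57BL/6J males. The young group held 6 untreated mice of 4 months. The saline group held 7 middle-aged mice given the saline vehicle, and the MCC950 group held 8 middle-aged mice given 10 mg/kg MCC950, a small-molecule inhibitor of the NLRP3 inflammasome, by intraperitoneal injection. Both middle-aged groups were injected for 6 weeks from 18 months and were 19.5 months old at collection. The young mice were untreated, so that age, injection and sequencing depth cannot be told apart in comparisons with them. The study's methods describe mice of 4 months from a tissue archive in another number than the 6 young libraries, and the origin of each young mouse is not given in the sources used here.

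Libraries held 27375870 to 84876399 counts, and genes of the mitochondrial genome took 49.9% to 80.4% of them. Every young library was shallower than every saline library, and Pdss1, the member with fewest reads, had 19 to 42 counts in young libraries. The fractions were labelled podocyte, and all 15 podocyte markers of a fixed list were detected, but the mean log2 CPM (counts scaled to a common library size) of 15 proximal tubule markers was above that of the podocyte markers in all 21 libraries. The summed podocyte markers ranged from 129.6 to 285 RPKM (reads per kilobase of exon, scaled to depth) in young, 59.6 to 109.9 in saline and 72.8 to 114.1 in MCC950 libraries. The values below are therefore those of a mixed fraction, in which more cells of a type and more RNA per cell cannot be told apart.

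On the mouse genome GRCm38, Pdss1 lies at chr2:22895522-22940266, Pdss2 at chr10:43221486-43464882 and Coq2 at chr5:100654723-100675140. Coq3 lies at chr4:21879673-21912162, Coq4 at chr2:29787493-29797935, Coq5 at chr5:115279666-115296972 and Coq6 at chr12:84361657-84373796. Coq7 lies at chr7:118509659-118533356 and Coq9 at chr8:94838321-94854895. Coq2 and Coq7 are on the minus strand and the other 7 on the plus strand. The annotated exons of Coq4 share 27.1% of their bases with Trub2 on the opposite strand, and those of Pdss1 share 9.44% with Abi1 and a pseudogene. The shared stretch was 4.07% or less for Pdss2, Coq6 and Coq9, and 0 for Coq2, Coq3, Coq5 and Coq7. The strand setting of the counting is not given in the sources used here, and without strand the reads of such a stretch cannot be assigned. The shared stretch is largest for Coq4, but the levels of the overlapping genes were not examined, so the size of this limit is not known for any member.

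Promoter windows of RefSeq on GRCm38.p6, from 250 bases before to 50 after a start site, were found for 8 of the 9 genes, with 2 windows for Coq3. They were searched on both strands for short motifs of factors known to act on nuclear genes of mitochondria: NRF-1 (GCGCATGC), GABP (CCGGAAG), ERR (TNAAGGTCA), YY1 (AAGATGGC), NF-Y (CCAAT) and CRE (TGACGTCA). The members did not share any one of these motifs. The windows of Pdss1, Pdss2, Coq2 and Coq9 are shown because these 4 had the largest MCC950 to saline ratios of the 9, and the capitals mark a match, read 5′ to 3′ along the gene.
Pdss1, chr2:22895272-22895571, plus strand: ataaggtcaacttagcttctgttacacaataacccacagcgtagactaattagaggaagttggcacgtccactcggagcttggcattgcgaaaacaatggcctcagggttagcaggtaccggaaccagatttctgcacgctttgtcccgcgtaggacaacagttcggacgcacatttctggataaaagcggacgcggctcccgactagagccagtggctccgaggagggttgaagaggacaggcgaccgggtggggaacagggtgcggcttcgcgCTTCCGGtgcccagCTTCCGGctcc
Pdss2, chr10:43221236-43221535, plus strand: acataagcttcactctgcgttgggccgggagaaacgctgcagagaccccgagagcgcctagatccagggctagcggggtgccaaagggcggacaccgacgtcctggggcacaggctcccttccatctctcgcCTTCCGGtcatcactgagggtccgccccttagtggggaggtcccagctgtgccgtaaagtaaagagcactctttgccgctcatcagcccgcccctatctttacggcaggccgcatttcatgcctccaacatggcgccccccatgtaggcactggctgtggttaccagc
Coq2, chr5:100674207-100674506, minus strand: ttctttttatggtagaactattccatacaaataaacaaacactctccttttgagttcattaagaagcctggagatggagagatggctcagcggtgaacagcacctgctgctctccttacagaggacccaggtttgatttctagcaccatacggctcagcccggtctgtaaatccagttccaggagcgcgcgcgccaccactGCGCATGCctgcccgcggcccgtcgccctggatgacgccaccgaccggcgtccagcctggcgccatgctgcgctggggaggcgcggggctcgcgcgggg
Coq9, chr8:94838163-94838462, plus strand: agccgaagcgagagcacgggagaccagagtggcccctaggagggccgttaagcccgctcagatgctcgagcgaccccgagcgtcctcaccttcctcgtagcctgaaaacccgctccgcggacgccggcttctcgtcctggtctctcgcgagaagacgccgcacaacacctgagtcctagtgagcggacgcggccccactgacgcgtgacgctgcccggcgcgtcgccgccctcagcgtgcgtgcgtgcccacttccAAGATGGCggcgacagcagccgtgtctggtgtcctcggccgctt
Coq2 held the NRF-1 letters 49 bases before its start site, a match found in 2.71% of the 32851 promoter windows of the table. Pdss1 held the GABP letters on the reverse strand at 25 and 39 bases after the start, and Pdss2 at 118 bases before it. GABP letters were also present in Coq6, and they occur in 8.86% of all windows. Coq9 held the YY1 letters 6 bases after the start, as 2.75% of all windows do. NF-Y letters, present in 37.4% of all windows, were found in Coq6 and Coq7. ERR and CRE letters, present in 1.28% and 1.79% of all windows, were found in no member window. These are matches of letters and were not tested as binding sites. The start sites are those of RefSeq, while the gene coordinates above are those of GENCODE. For Coq2, Coq3, Coq6 and Coq9 the start sites of the 2 annotations differ. The windows of Coq2 and Coq6 lie wholly inside the coordinates given above.

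Levels were compared between genes per kilobase of exon, with the union of all annotated exons of a gene as its length. The lengths of the transcripts present were not measured, so the order holds for this length only. The exons are those of GENCODE, while the annotation used for counting is not given. Counts and lengths may therefore cover different bases. The 9 genes spanned a wide range: Coq9, a lipid-binding protein that hands the quinone intermediate to Coq7, was highest with a median of 13.3 RPKM over the 21 libraries, and Pdss1 was lowest with 0.297 RPKM. The ratio of the highest to the lowest gene was 31.98 to 73.76 within a library. Coq2, the transferase that joins tail and ring, followed with a median of 6.23 RPKM and Coq5, the C-methyltransferase, with 4.23 RPKM. The order Coq9, Coq2, Coq5 and Coq4 held in all 21 libraries.

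The middle of the order was not resolved. Coq4, an organizing subunit of the complex, had a median of 1.67 RPKM, Coq6, a flavin monooxygenase, 1.55 RPKM and Coq3, the O-methyltransferase, 1.43 RPKM. Coq4 exceeded Coq6 in 14 libraries and Coq6 exceeded Coq3 in 11 of the 21, so these 3 neighbours did not differ beyond their spread. Coq7, the hydroxylase of the penultimate step, had a median of 1.23 RPKM and was below Coq3 in 18 libraries. This place follows the length, which was 6434 bases for Coq7 and 2997 for Coq3. Before division by length, Coq7 had the higher median CPM, with 6.72 against 3.89 in young libraries. The medians were 7.90 against 4.495 in saline and 9.22 against 4.83 in MCC950 libraries. The tail synthase subunits closed the order in every library, with Pdss2 at 0.749 RPKM above Pdss1.

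**Figure D1:**
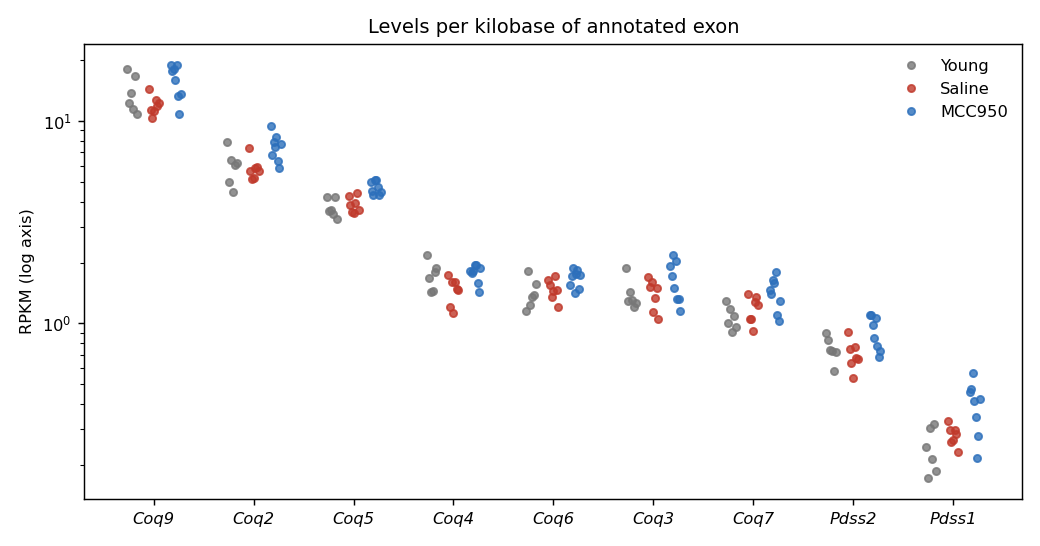
RPKM of each gene on a log axis, 1 point per library, with young in grey, saline in red and MCC950 in blue, ordered by the median over 21 libraries. Coq9 lies above 10 RPKM in every library, Pdss1 lies below 0.6 RPKM in every library, and the points of Coq4, Coq6 and Coq3 overlap.

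The first comparison asked how the pathway differed between young and middle-aged saline-treated mice. No member passed the test: 0 of 9 had a Benjamini-Hochberg adjusted p under 0.05 by edgeR's quasi-likelihood test, against 24.6% of all genes tested in this comparison. DESeq2 also called 0 of 9, where it called 11.8% of all genes higher and 13.8% lower. By edgeR 1 of 9, Coq4, had an unadjusted p under 0.05, as did 6049 of the 16377 genes tested. The log2 fold changes of the members had a median of 0.0053 and ran from -0.25 to 0.23, beside a median of 0.02 over all genes. The young and saline libraries overlapped for all 9, where 9.37% of all genes were free of overlap. Podocyte markers of the same libraries moved far more, with 14 of 15 called lower and a median log2 fold change of -1.96.

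Coq4 in saline libraries ranged from 3.83 to 5.91 CPM with a median of 5.02 CPM, and in young libraries from 4.84 to 7.42 with a median of 5.89 CPM. The groups overlapped, although 6 of 7 saline libraries were at or below the young median. Its log2 fold change was -0.25 ± 0.12 (SE), with an edgeR adjusted p of 0.122. Coq9 had a log2 fold change of -0.20 with a 95% interval of -0.48 to 0.08, and Pdss1 one of 0.23 with an interval of -0.19 to 0.65. Pdss1 and Pdss2 form 1 enzyme together, and Pdss2 had a log2 fold change of -0.09 with an interval of -0.38 to 0.19.

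The intervals set what could have been missed with age in the mixed fraction as a whole, in the fit without a marker score. For Coq5, the member with the narrowest interval, the saline to young ratio lay between 0.931 and 1.16. For Pdss1, the widest, it lay between 0.880 and 1.57. Coq2, Coq3, Coq6 and Coq7 had fold changes between 0.972 and 1.10, each with an interval that included no change. With the mean log2 CPM of the podocyte markers as a covariate, Coq4, Coq9 and Coq2 had log2 fold changes of -0.70, -0.56 and -0.52. These 3 had an unadjusted p under 0.05 by edgeR, and 2 of the 9 members had positive values. In that fit 0 of 9 were called, where 0.0366% of all genes were called higher and 0 lower. The score ran from 2.245 to 3.44 in saline and from 4.07 to 5.20 in young libraries, without overlap. This fit therefore cannot separate the score from the group.

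The second comparison asked whether inhibition of NLRP3 moved the pathway in middle-aged mice. All 9 members had higher fitted levels in MCC950 than in saline libraries, and 3 of 9, Coq5, Coq9 and Coq2, passed the test and rose, where 11.9% of all genes tested were called higher. None was called lower, against 4.86% of all genes. The median log2 fold change of the 9 was 0.28, with a range of 0.17 to 0.49, beside a median of 0.0028 over all genes, of which 50.5% had a positive sign. The sizes were small, from 12.5% to 40.8% more than in saline libraries. In none of the 9 were the MCC950 and saline libraries free of overlap, a separation reached by 1.74% of all genes.

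**Figure D2:**
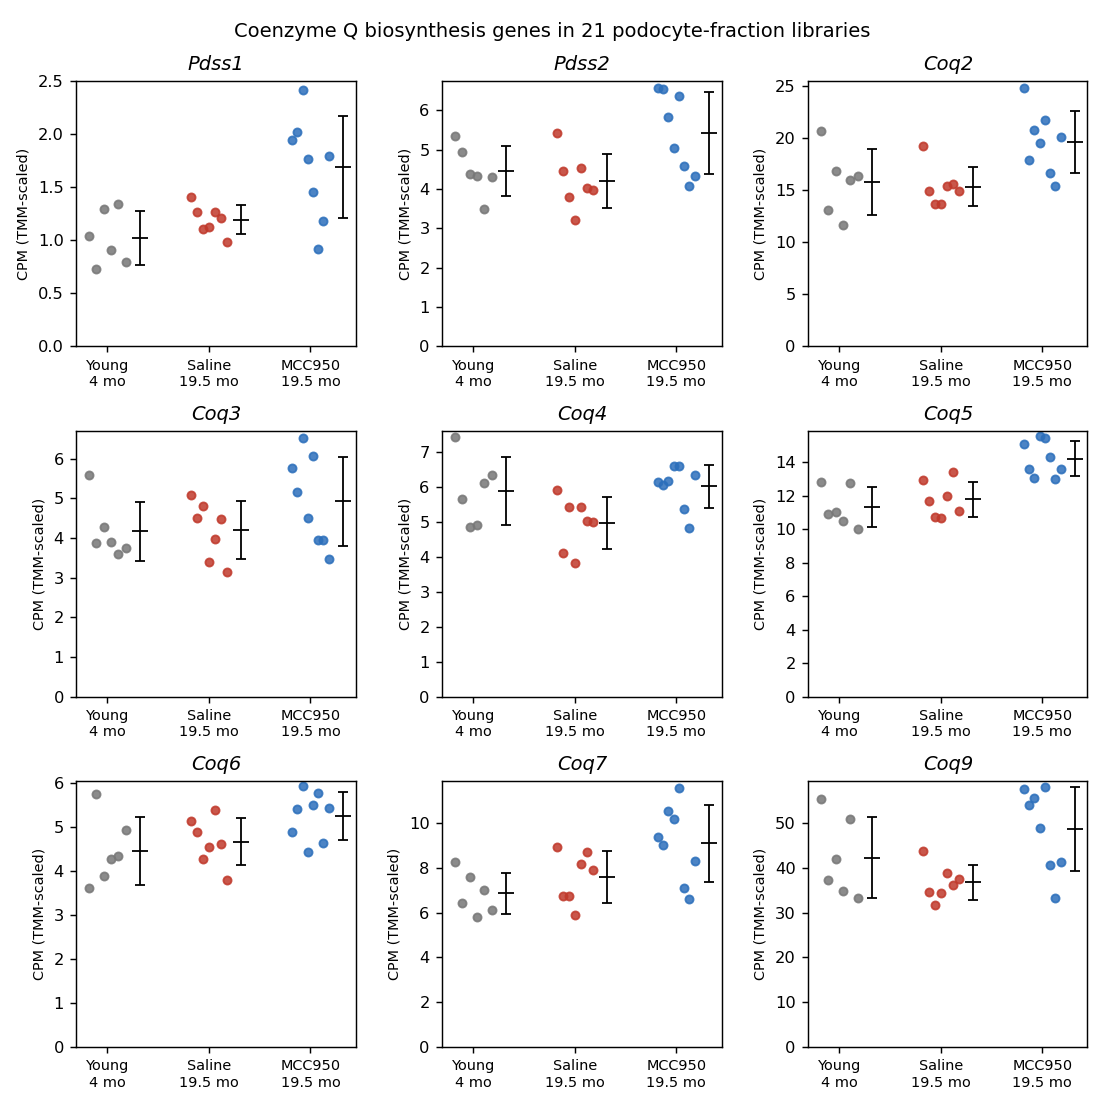
CPM on TMM-scaled library sizes for each gene, on linear axes that start at 0, 1 point per library in the order of its replicate number, with the mean and SD of the group as a black bar. The MCC950 points of Coq5 lie between 13.0 and 15.6 CPM, above all young points, while the other genes overlap between groups.

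Coq5 showed the tightest difference. Its MCC950 libraries ranged from 13.0 to 15.6 CPM with a median of 14.0 CPM, and its saline libraries ranged from 10.7 to 13.4 CPM with a median of 11.7 CPM. The highest saline value was exceeded by 6 of the 8 MCC950 libraries and the saline median by all 8. The log2 fold change was 0.27 ± 0.07 (SE), a ratio of 1.21 with a 95% interval of 1.09 to 1.34 and an edgeR adjusted p of 0.0144.

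Coq9 and Coq2 rose with wider spread. Coq9 ranged from 33.3 to 58.1 CPM with a median of 51.6 CPM in MCC950 libraries, and from 31.8 to 43.9 CPM with a median of 36.3 CPM in saline libraries. The 5 MCC950 libraries above all saline ones were replicates 1 to 5, and replicate 7 was the lowest. The log2 fold change of Coq9 was 0.40 ± 0.13 (SE), with an edgeR adjusted p of 0.0332. Coq2 ranged from 15.4 to 24.8 CPM with a median of 19.8 CPM in MCC950 libraries and from 13.7 to 19.3 CPM with a median of 14.9 CPM in saline libraries. All 8 MCC950 libraries exceeded the saline median of Coq2 and 5 exceeded its highest saline library. Its log2 fold change was 0.35 ± 0.11 (SE), with an edgeR adjusted p of 0.0376.

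The tail synthase subunits had differences of similar or larger size that did not pass. Pdss1 ranged from 0.915 to 2.42 CPM with a median of 1.78 CPM in MCC950 libraries and from 0.985 to 1.40 CPM with a median of 1.21 CPM in saline libraries. Every saline library was exceeded by 6 MCC950 libraries, and MCC950 replicate 6 lay below the saline range. Its log2 fold change was 0.49 ± 0.18 (SE), the largest of the 9, with an edgeR adjusted p of 0.0611 from 47 to 122 counts per library. Pdss2 had a log2 fold change of 0.36 ± 0.13 (SE) and an edgeR adjusted p of 0.0507.

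Pdss1 and Pdss2 were also compared with each other, since they work as 1 enzyme. The ratio of Pdss1 to Pdss2 counts had a median of 0.203 in young, 0.283 in saline and 0.302 in MCC950 libraries. The mean log2 ratio was -2.08 ± 0.49 (SD, n = 6) in young, -1.78 ± 0.16 (SD, n = 7) in saline and -1.70 ± 0.37 (SD, n = 8) in MCC950 libraries. Exact two-sided permutation tests over libraries gave p = 0.157 for saline against young, p = 0.601 for MCC950 against saline and p = 0.113 for MCC950 against young, which became 0.236, 0.601 and 0.236 when adjusted over the 3. Without young replicate 5, which had the highest young ratio, 0.387, the adjusted p of the permutation test was 0.0350 for saline against young and also for MCC950 against young. That library held 24 Pdss1 and 62 Pdss2 counts. No other leave-out brought the adjusted p of either comparison under 0.05, and in both it reached 0.504.

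The remaining ring-modifying members had adjusted p-values above 0.05. Coq4 had a log2 fold change of 0.28 ± 0.11 (SE) with an edgeR adjusted p of 0.0736, and 7 of its 8 MCC950 libraries exceeded the saline median. Coq7 had one of 0.26 ± 0.12 (SE) with an edgeR adjusted p of 0.139. Coq3 and Coq6 had log2 fold changes of 0.23 and 0.17, and both 95% intervals included no change. With libraries thinned to equal depth Coq6 was at -0.00098, and no other member turned in sign under another scaling in this comparison.

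The count of 3 changed when single libraries were left out, and the share of all genes called higher also changed. Coq5 remained called in 20 of the 21 fits that left out 1 library and had an edgeR adjusted p of 0.0530 without saline replicate 4, while Coq9 was called in 11 and Coq2 in 8. Members called higher numbered 0 without saline replicate 4, where 6.18% of all genes were called higher, against 11.9% with all libraries. They numbered 1 without saline replicates 2, 3, 6 or 7 or MCC950 replicates 1, 3, 4 or 5, beside 7.03% to 9.58% of genes. They numbered 5 without MCC950 replicate 6 and 6 without MCC950 replicate 7, beside 14.0% and 14.7% of all genes. MCC950 replicate 7 was the lowest of its group for Pdss2, Coq2, Coq4, Coq5, Coq7 and Coq9. The sign was positive for all 9 genes in all 21 of these fits.

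**Figure D3:**
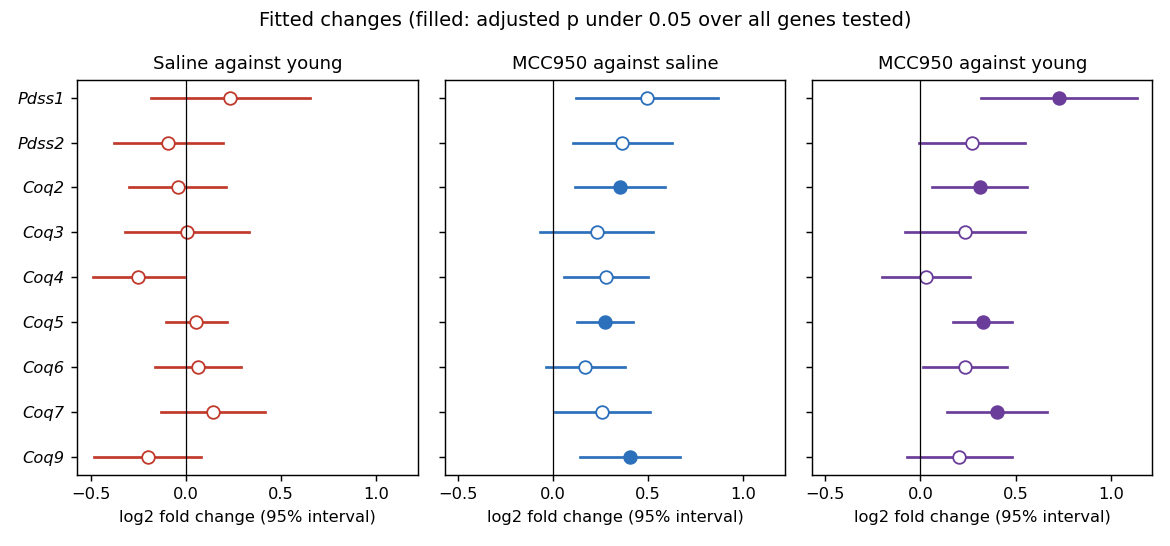
Log2 fold changes with 95% intervals from edgeR in the 3 comparisons, with filled points where a gene passed the adjusted threshold of 0.05. Saline against young shows no filled point, MCC950 against saline shows 3 (Coq2, Coq5, Coq9) and MCC950 against young shows 4 (Pdss1, Coq2, Coq5, Coq7).

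The third comparison set MCC950-treated middle-aged mice beside young mice, and it shares its libraries with the other comparisons, so the values are given side by side only. All 9 members had positive log2 fold changes, with a median of 0.27 beside 0.08 over all genes, but Coq4 turned slightly negative, at -0.011 with DESeq2 and at -0.0096 with median-of-ratios size factors in edgeR. Pdss1, Coq2, Coq5 and Coq7 rose, 4 of 9, where 21.8% of all genes were called higher and 16.5% lower. In the same comparison 8 of 15 proximal tubule markers were called higher, with a median log2 fold change of 0.64, while 14 of 15 podocyte, 8 of 8 endothelial and 7 of 7 collecting duct markers were called lower, with medians of -1.39, -1.24 and -0.81. With the proximal tubule score as a covariate 1 of 9 members was called higher against young, beside 21.7% of all genes. With the podocyte score, under which 0.189% of all genes were called higher, 0 of 9 were called by edgeR and 1 had an unadjusted p under 0.05. The podocyte score ran from 3.11 to 3.95 in MCC950 and from 4.07 to 5.20 in young libraries, without overlap. The fit with it therefore cannot separate the score from the group. Pdss1 ranged from 0.729 to 1.35 CPM in young libraries with a median of 0.978 CPM, below the MCC950 median of 1.78 CPM. It had a log2 fold change of 0.73 ± 0.20 (SE), a ratio of 1.66 with a 95% interval of 1.25 to 2.20 and an edgeR adjusted p of 0.0066. Its young libraries held 19 to 42 counts, and its MCC950 libraries had the larger spread, with a coefficient of variation of 28.6%.

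Coq5 was the member whose groups did not overlap, a separation upward that 3.28% of all genes showed. Its young libraries ranged from 9.99 to 12.8 CPM with a median of 10.97 CPM, and all 8 MCC950 libraries lay above them. The log2 fold change was 0.33 ± 0.07 (SE), with an edgeR adjusted p of 0.00193. Coq7 ranged from 5.83 to 8.26 CPM with a median of 6.72 CPM in young libraries, 5.90 to 8.97 with a median of 7.90 CPM in saline libraries, and 6.63 to 11.6 with a median of 9.22 CPM in MCC950 libraries. The 3 groups of Coq7 overlapped while their medians stood in that order. Against young, Coq7 had a log2 fold change of 0.40 ± 0.13 (SE) with an edgeR adjusted p of 0.0172, and Coq2 one of 0.31 ± 0.12 (SE) with an edgeR adjusted p of 0.0448.

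Pdss1 and Coq5 were called against young in all 21 fits that left out 1 library, Coq7 in 20, with an edgeR adjusted p of 0.0593 without young replicate 4, and Coq2 in 4. The members called higher numbered 2 without young replicate 4, where 15.5% of all genes were called higher, against 21.8% with all libraries. The members left uncalled against young were Pdss2 with a log2 fold change of 0.27, Coq6 with 0.24, Coq3 with 0.23, Coq9 with 0.20 and Coq4 with 0.03. For Coq4 the 95% interval ran from -0.20 to 0.26, and its young, saline and MCC950 medians were 5.89, 5.02 and 6.16 CPM.

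The genes around the pathway were described by fixed lists. Of all genes tested, 11.9% were called higher and 4.86% lower with MCC950 against saline, and 12.2% higher and 12.4% lower with age. Of 9 accessory genes, which hold the kinases Coq8a and Coq8b, the chaperones Coq10a and Coq10b, the electron donors Fdx2 and Fdxr, and Pptc7, Hpdl and Stard7, 3 rose with MCC950 against saline, none fell and 6 did not pass. Coq8a had a log2 fold change of 0.52 ± 0.17 (SE) with an edgeR adjusted p of 0.0357, Fdx2 one of 0.32 with 0.0376, and Stard7, a lipid carrier that delivers coenzyme Q out of mitochondria, one of 0.31 with 0.0117. Coq8b, whose loss causes glomerular disease, had one of 0.25 ± 0.10 (SE) with an edgeR adjusted p of 0.0847. Coq10a and Coq10b had log2 fold changes of 0.13 and 0.01. With age, 1 accessory gene rose, Coq10a by a log2 fold change of 0.31 (edgeR adjusted p of 0.0188), and 1 fell, Hpdl, which takes part in making the ring precursor, with one of -0.81 (edgeR adjusted p of 0.0281).

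Upstream, the mevalonate pathway supplies the units of the tail. Of its 9 listed genes 5 rose with MCC950 against saline and none fell, with a median log2 fold change of 0.64. Acat2, which condenses acetyl-CoA, had a log2 fold change of 0.96 ± 0.16 (SE) with an edgeR adjusted p of 0.0013, and Mvd, the decarboxylase that makes isopentenyl diphosphate, one of 0.90 ± 0.15 (SE) with 0.0014. Hmgcs1 had one of 0.64 with 0.0126. The branch enzyme Ggps1, which makes the shorter geranylgeranyl chain, had a log2 fold change of -0.08 with an edgeR adjusted p of 0.419. With age, the lowest edgeR adjusted p of the 9 was 0.0722, for Hmgcs1 with a log2 fold change of -0.43.

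Downstream, 13 enzymes that pass electrons to coenzyme Q were listed, of which Sdhd did not pass the filter on low counts. Of the 12 tested, 6 rose with MCC950 against saline, none fell and the median log2 fold change was 0.41. Prodh2, the hydroxyproline dehydrogenase, had a log2 fold change of 1.31 ± 0.24 (SE) with an edgeR adjusted p of 0.0027, and Prodh, the proline dehydrogenase, one of 0.99 ± 0.22 (SE) with 0.0073. Sdhb of complex II, Sqor of sulfide oxidation and Etfdh of fatty acid oxidation had log2 fold changes of 0.39, 0.47 and 0.42, each with an edgeR adjusted p of 0.0289 or less. With age, the lowest edgeR adjusted p of the 12 was 0.197, for the quinone reductase Nqo1 with a log2 fold change of 0.39.

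**Figure D4:**
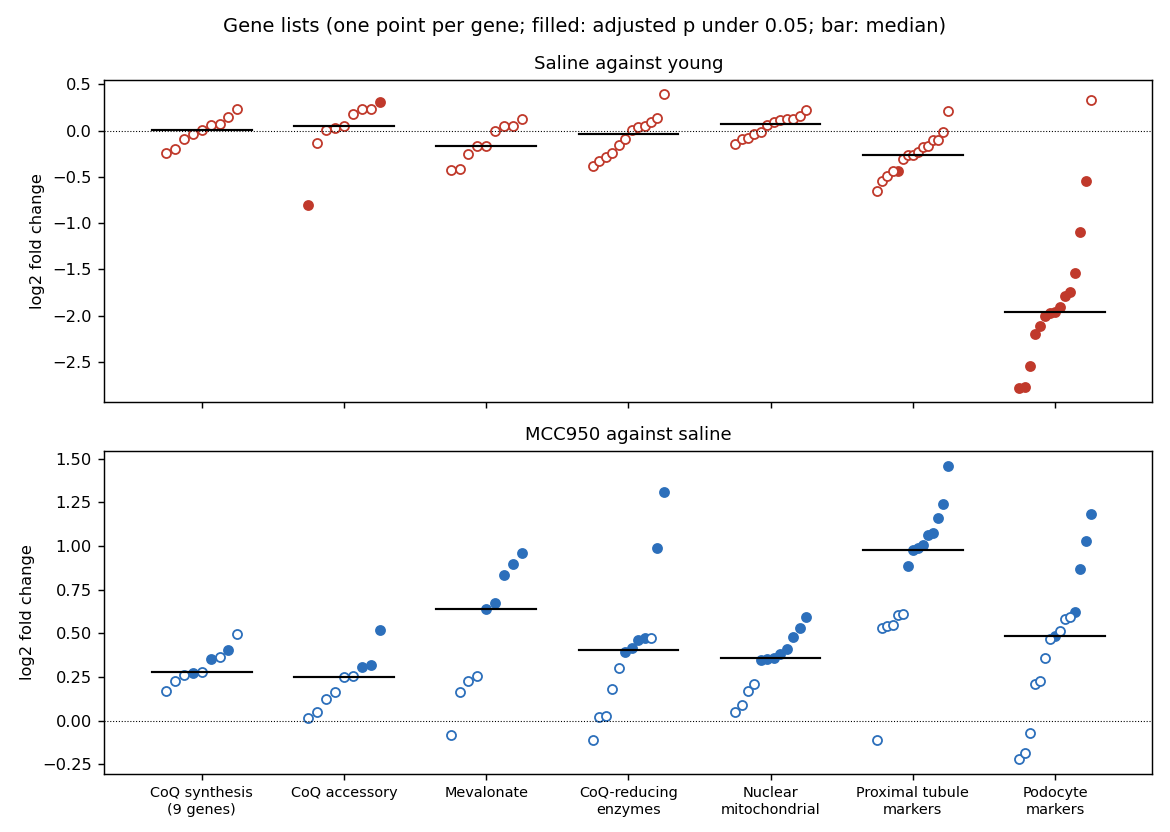
Log2 fold changes of single genes in 7 lists for saline against young (upper) and MCC950 against saline (lower), sorted within a list, with filled points for an edgeR adjusted p under 0.05 and a bar at the list's median. With MCC950 the median is 0.28 for the 9 members, 0.36 for nuclear mitochondrial genes and 0.97 for proximal tubule markers, and with age the podocyte markers stand apart at -1.96.

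Other mitochondrial genes and tubule markers were higher in the same libraries. Of 12 nuclear genes of general mitochondrial function, such as Hspd1, Timm23 and Phb2, 8 rose with MCC950 against saline with a median log2 fold change of 0.36. Hspd1, the matrix chaperonin, had a log2 fold change of 0.59 ± 0.12 (SE) with an edgeR adjusted p of 0.0047. Of 15 proximal tubule markers, 9 were called higher by edgeR, with a median log2 fold change of 0.97. Their summed level ranged from 1507 to 3511 RPKM in saline and from 1856 to 6779 RPKM in MCC950 libraries. Most of this sum was the marker Kap. It had medians of 1662 RPKM in saline and 2515 RPKM in MCC950 libraries, where the sums had medians of 2289 and 3582. Kap had a log2 fold change of 0.61 with an edgeR adjusted p of 0.222. No marker was at 0 in every library. Of 15 podocyte markers, 5 were called higher, with a median of 0.48. Genes of the mitochondrial genome took a median of 68.6% of counts in saline and 57.5% in MCC950 libraries.

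The members were read again with such scores as a covariate in the same fit. With the podocyte marker score, 4 members were called higher in MCC950 than saline libraries, Coq2, Coq4, Coq5 and Coq9, where 15.8% of all genes were, and all 9 values were positive, from 0.16 to 0.50. With the proximal tubule marker score, 0 of 9 were called by edgeR and 0 had an unadjusted p under 0.05, with log2 fold changes from -0.14 to 0.20 and a median of 0.02. With the score of the 12 nuclear mitochondrial genes, which was added once the data had been seen, 0 of 9 were called and 0 had an unadjusted p under 0.05, with values from -0.15 to 0.16 and a median of -0.0029. Across all genes, the calls higher with MCC950 numbered 1957 without a score, 471 with the proximal tubule score and 236 with the mitochondrial score. The proximal tubule score ranged from 6.38 to 7.62 in saline and from 7.10 to 8.41 in MCC950 libraries. Tubule marker RNA and treatment thus differed together, with overlap. Tubule content, regulation of the markers and treatment cannot be told apart in the member values.

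**Figure D5:**
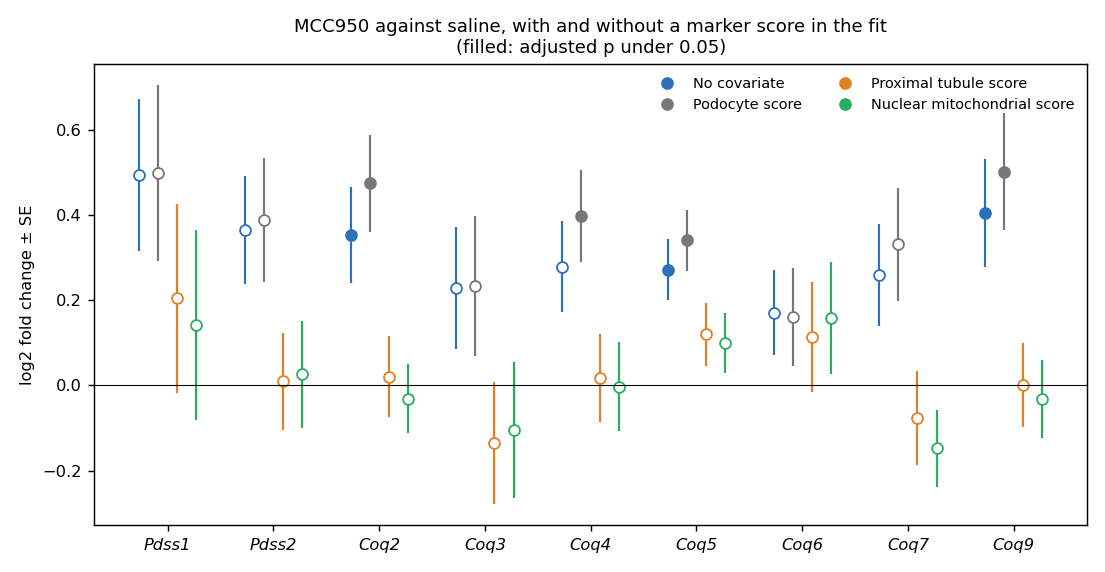
Log2 fold changes ± SE of the 9 genes for MCC950 against saline without a covariate and with 1 of 3 marker scores in the edgeR fit, filled for an adjusted p under 0.05. Values with the podocyte score lie between 0.16 and 0.50, and those with the proximal tubule score lie between -0.14 and 0.20 with no filled point.

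The members varied together from library to library, with Coq6 apart. Over the 36 pairs of members, the Pearson r of the deviations from group means had a median of 0.55 and was positive in 31 pairs. The highest was 0.82 and the lowest -0.14. Coq6 had a median r of -0.08 with the other 8, where each of the others had one of 0.38 to 0.65. These values are descriptions over 21 libraries whose points share depth, scaling and cell makeup, and no test was made of them.

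Coq6 also had the r nearest 0 with the proximal tubule and mitochondrial scores, though not with the podocyte score, where it was 0.05 and Coq3 had 0.0081. With the mitochondrial score its r over 21 libraries was 0.02 (Spearman rho 0.09), whereas Coq2, Coq7 and Coq9 had r of 0.88, 0.88 and 0.86. Without the 2 libraries farthest from the median score, these were -0.03, 0.84, 0.89 and 0.83. With the proximal tubule score, r was 0.14 for Coq6 (rho 0.28) and 0.44 to 0.84 for the other 8. Without the 2 farthest libraries it was 0.33 for Coq6, near the 0.41 of Pdss1, and 0.59 to 0.74 for the other 7. Young replicate 1, which had the highest proximal tubule score of the young libraries, was the highest young library for 7 members and the lowest for Coq6 at 3.61 CPM, where the young median was 4.29 CPM.

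The genes most like the members in profile were ranked by the r of their log2 CPM with the mean standardized profile of the 9 over 21 libraries. The 10 most alike were Uqcrc1, Pcbd1, Cisd1, Mettl26, Calml4, Slc25a39, Acat1, Akr7a5, Idh3b and Slc23a1, with r from 0.97 to 0.96 and r within groups from 0.95 to 0.92. Uqcrc1, first with an r of 0.97 and a rho of 0.98, is a core subunit of complex III, which oxidizes the reduced quinone. By list, the median r was 0.85 for the 12 mitochondrial genes, 0.86 for the 15 proximal tubule markers and -0.21 for the 15 podocyte markers, beside 0.02 over the other 16368 genes tested.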

How the data were processed

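Podocyte fractions of 21 mice were grouped by their labels. The authors trimmed reads with Trim Galore, aligned them to mm10 (GRCm38) with Bowtie2, an aligner that does not split reads across introns, and deposited whole-number featureCounts counts for 27179 genes. Annotation release, strand setting and handling of multiply aligned reads are not given in the sources used here. A deposited table of normalized values was not used.

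RefSeq symbols matched 25275 gene numbers. Counts were fitted with edgeR 4.0.16 in R 4.3.3 (TMM, filterByExpr by group, quasi-likelihood test, 3 groups in 1 fit), and p-values were adjusted by the Benjamini-Hochberg method over 16377 genes, with calls at 0.05. SE is the log2 fold change over the root of F. CPM used TMM-scaled library sizes, with a prior count of 2 for log2 values, and RPKM used union exon lengths of GENCODE on GRCm38. DESeq2 1.42.0 was an alternative. Exact permutation tests used scipy 1.17.1 in Python 3.11.15. Figures used matplotlib 3.10.9. The workflow was tested on simulated data.

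Totals had medians of 29867773.5 (young), 64842206 (saline) and 46642389.5 (MCC950) counts, and precision follows the SE and intervals given. Replicates are separate mice. Counts of no 2 libraries agreed within sampling noise (chi-square over degrees of freedom of 13.7 or more within groups). Named were all 9 members, the 4 accessory kinase and chaperone genes, the 2 smallest p-values of each list and comparison, and the 10 genes most alike in profile. Podocyte-marker and other cell lists served as scores, and Kap was named as the highest gene of the proximal tubule list. Other genes named here by value (Fdx2, Sdhb, Sqor and Etfdh among them) come from these rules over the 3 comparisons. The members and lists were chosen with earlier results of these data known. Alternatives were DESeq2, other size factors, other count filters, the replicate block, 2 groups only, mitochondrial genome genes left out, 3 marker scores, libraries thinned to 5804891 counts and each library left out. Left out were immunostaining and qRT-PCR, which the counts do not cover.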

Additional observations from a re-analysis of the deposited data

Results flagged for a closer look

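Of the 27 combinations of member and group, 2 had a library far from the others by the gap between the extreme library and its neighbour relative to the range of the group, and chance alone is set to give about 1 in 20. Coq2 in saline libraries was highest in replicate 1, at 19.3 CPM, with a gap of 0.653 of the group's range against a critical value of 0.568. Coq3 in young libraries was highest in replicate 1, at 5.60 CPM, with a gap of 0.651 against a critical value of 0.625. Without these libraries Coq3 had a log2 fold change with age of 0.11 (without young replicate 1), and Coq2 one with MCC950 against saline of 0.39 (without saline replicate 1).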

How the results depend on the processing

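No member was called with age in any of the 21 fits that left out 1 library (range 0 to 0), nor in the other settings except 1. Members called higher with MCC950 against saline numbered 3, with a range of 0 to 6 over the leave-outs, and against young 4, with a range of 2 to 4. Over the same leave-outs the share of all genes called higher ran from 6.18% to 14.7% against saline. Against young it ran from 15.5% to 22.6%. For MCC950 against saline, DESeq2 called 5 (Pdss1, Pdss2, Coq2, Coq5 and Coq9) where it called 12.9% of all genes higher, and library sizes alone called 9, beside 39.1% of all genes. Thinned libraries gave 2, Coq5 and Pdss2, beside 7.57% of all genes, with Coq2 and Coq9 at adjusted p of 0.135 and 0.0535. The proximal tubule and mitochondrial scores gave 0 each, beside 2.88% and 1.44% of all genes. Library sizes alone moved the median of all genes to 0.42, and the members' median lay 0.28 above it, as it did with TMM. For MCC950 against young, the podocyte and mitochondrial scores gave 0 called higher, beside 0.189% and 16.8% of all genes, and the proximal tubule score 1, beside 21.7%. The podocyte score did not overlap between young and either middle-aged group. Fits with that score therefore cannot separate it from the group in comparisons with young. The mitochondrial score, added after seeing the data, gave 2 called lower with age (Coq4 and Coq9) and 1 against young (Coq9), beside 16.6% and 14.1% of all genes. The cause of these changes was not tested.

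Correlations between same-numbered libraries of different groups ranged from -0.14 to 0.40. They were not set beside those of differently numbered libraries, so whether the replicate numbers pair the libraries was not tested. With the replicate number as a block, 4 members were called higher against saline and 7 against young, beside 14.5% and 23.6% of all genes, and none with age, beside 13.5% called higher and 11.5% lower. Coq2 with age turned to 0.0029 under that block.

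Signs also turned as follows. With age, Coq2 was at 0.060 with the proximal tubule score. Coq3 was at -0.017 with DESeq2, -0.014 with median-of-ratios factors, -0.11 with library sizes alone, -0.0022 with thinned libraries, and -0.015 and -0.034 with the podocyte and mitochondrial scores. Coq5 was at -0.020 with library sizes alone and -0.22 with the podocyte score, which put Coq7 at -0.13. For MCC950 against saline, the proximal tubule score put Coq3 at -0.14 and Coq7 at -0.077, and the mitochondrial score put Coq2, Coq3, Coq4, Coq7 and Coq9 at -0.031, -0.10, -0.0029, -0.15 and -0.032. Coq6 was at -0.00098 with thinned libraries. Against young, the podocyte score put Coq2, Coq4 and Coq9 at -0.045, -0.30 and -0.058, and the proximal tubule score put Coq3, Coq4 and Coq9 at -0.028, -0.15 and -0.077. The mitochondrial score put Pdss2, Coq2, Coq3, Coq4, Coq7 and Coq9 at -0.13, -0.12, -0.14, -0.29, -0.068 and -0.28. Coq4 was also at -0.011 with DESeq2, -0.0096 with median-of-ratios factors, -0.15 with thinned libraries and -0.00071 with only the 2 groups.

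Over the leave-outs, Coq2 and Coq3 with age ranged from -0.13 to 0.054 and from -0.051 to 0.11, and Coq4 against young from -0.050 to 0.11. The log2 ratio of Pdss1 to Pdss2 ranged from 0.18 to 0.45 for saline against young and from 0.27 to 0.54 for MCC950 against young. Depth limits Pdss1 most, with as few as 19 counts in a young library.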

Other observations

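Lists of markers of other cell types were counted in the same libraries. Of all genes tested, 12.2% were called higher and 12.4% lower with age, and 4.86% lower with MCC950 against saline. With age, edgeR called 7 of 8 endothelial and 4 of 6 mesangial and smooth muscle markers lower, with median log2 fold changes of -1.04 and -1.13, and 4 of 7 collecting duct markers lower with a median of -0.61. It called 4 of 6 T cell, 3 of 6 B and plasma cell and 2 of 8 macrophage markers higher, with medians of 1.53, 1.00 and 0.86. Of 7 loop and distal tubule markers, 2 were called lower with age. With MCC950 against saline, 2 of 8 endothelial and 2 of 7 loop and distal tubule markers were called lower. The T cell, B and plasma cell, macrophage, mesangial and collecting duct markers did not pass, with medians of -0.78, -0.33, -0.20, -0.32 and -0.11.

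Sdhd, the small membrane anchor of complex II, had medians of 0.0464 RPKM in young, 0.115 in saline and 0.0650 in MCC950 libraries. Sdha of the same complex had 45.0, 42.8 and 56.3 RPKM. Whether alignment or counting lowered the Sdhd values was not tested, so they are not read as its level in the cells.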
